A study of Mus musculus with 5 samples.

Results

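FGF4-ERK signalling is described here through 10 genes in mouse embryonic stem (ES) cells before and after induction of a Satb1 transgene. The members are the ligand gene Fgf4, the receptor genes Fgfr1 and Fgfr2, the feedback inhibitor genes Spry2, Spry4, Spred1 and Dusp6, and the genes of the response factors Etv4, Etv5 and Egr1. They were chosen by symbol, as the probe sets annotated with that symbol alone, and where a gene had several probe sets the one with the highest mean over all arrays was taken. All 10 were measured, among 19938 genes in all, and Etv5 was the only one with a second probe set. RNA came from ES cells carrying a tetO-Satb1 transgene, a construct that doxycycline (DOX) switches on, grown in ES medium with serum and the cytokine LIF. The 2 uninduced arrays were of cells without DOX, which the labels also call control, and the 3 induced arrays were of cells kept in DOX for the last 24 h. All RNA was collected 48 h after passage. The question put by the design is which transcripts differ when Satb1 is overexpressed. No group of DOX-treated cells without the transgene was analysed here, so an effect of DOX and one of Satb1 cannot be told apart. The labels do not say whether the numbered samples are clones or separate cultures, so a p-value reflects variation among these 5 arrays alone, and that variation may be technical.

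Fibroblast growth factor 4 is secreted by ES cells themselves and acts on FGF receptors at the cell surface. The receptors pass the signal through adaptor proteins to RAS and the RAF, MEK and ERK kinases. ERK activity pushes ES cells towards leaving the naive state, and LIF in the medium works against this. The pathway also switches on its own inhibitors and a few transcription factors, so that the RNA of Dusp6, the Sprouty genes, Etv4, Etv5 and Egr1 is widely used as a readout of ERK activity.

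Levels are log2 values after robust multi-array averaging (RMA), and array medians lay between 4.91 and 4.92. The values hold many exact ties between arrays: 15.1% of genes were identical on all 5 arrays, and in 9.03% no 2 arrays were equal. A tie can hide a small difference, and it makes the spread within a group too small. Intervals therefore combine each gene's own spread with that estimated by limma from the 1800 genes in which no 2 arrays were equal. The latter is called the untied spread here. Ties in a gene still narrow its interval. Standard errors after ± are limma's without the untied spread, so ties can make them too small. Satb1 RNA was higher on each induced array, as a check of the labels. Satb1 had log2 levels of 4.95 and 5.34 without DOX and of 8.61, 8.79 and 8.68 with DOX, a change of 3.55 ± 0.15 (standard error) that did not pass in limma over all genes (adjusted p = 0.229). It passed with the untied spread (adjusted p = 0.0038, within a range from 0.00053 to 0.693 over 15 alternatives). The 11 measured ES cell markers had mean levels from 9.07 to 9.13 over the 5 arrays, with Pou5f1, the gene of the factor OCT4, between 9.86 and 9.96. The labels name irradiated feeder cells, and the mean of 23 measured fibroblast genes was 5.31 and 5.32 without DOX and between 5.33 and 5.34 with DOX. Col1a1, the collagen gene that defines fibroblasts in this list, was at 6.07 or 6.09 on every array.

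None of the 10 genes passed limma's test over all genes after Satb1 induction (0 higher and 0 lower at an adjusted p under 0.05). Of all genes, 0.015% passed (0.01% higher and 0.00502% lower), which is 3 of 19938. Satb1 itself did not pass this test (limma adjusted p = 0.229). A count of 0 among 10 genes therefore does not show that they were unchanged. No member reached an unadjusted p under 0.05 either, against 1.55% of all genes. The untied spread also gave 0 members, and 0.00502% of all genes passed with it, which is Satb1 alone. At an unadjusted p under 0.05 with this spread there were 0 members and 1.07% of all genes. In bulk RNA, fewer cells of a type and less RNA per cell cannot be told apart. Of the 10 genes, 6 had a higher mean in induced cells, 2 a lower mean and 2 an identical value throughout. Over all genes, 39.6% had a higher and 45.3% a lower mean. The median change of the 10 genes was 0.010 on the log2 scale, and that of all genes was 0. The groups overlapped or touched in all 10 genes, whereas they lay fully apart in 4.73% of all genes (1.65% higher and 3.08% lower). Without induced array 3, Spry2, Dusp6 and Etv4 had all induced arrays above the uninduced ones, as did 3.65% of all genes in that comparison of 2 against 2 arrays. The 95% intervals of the 10 genes reached from 0.848-fold to 1.28-fold, both limits set by Egr1.

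**Figure D1:**
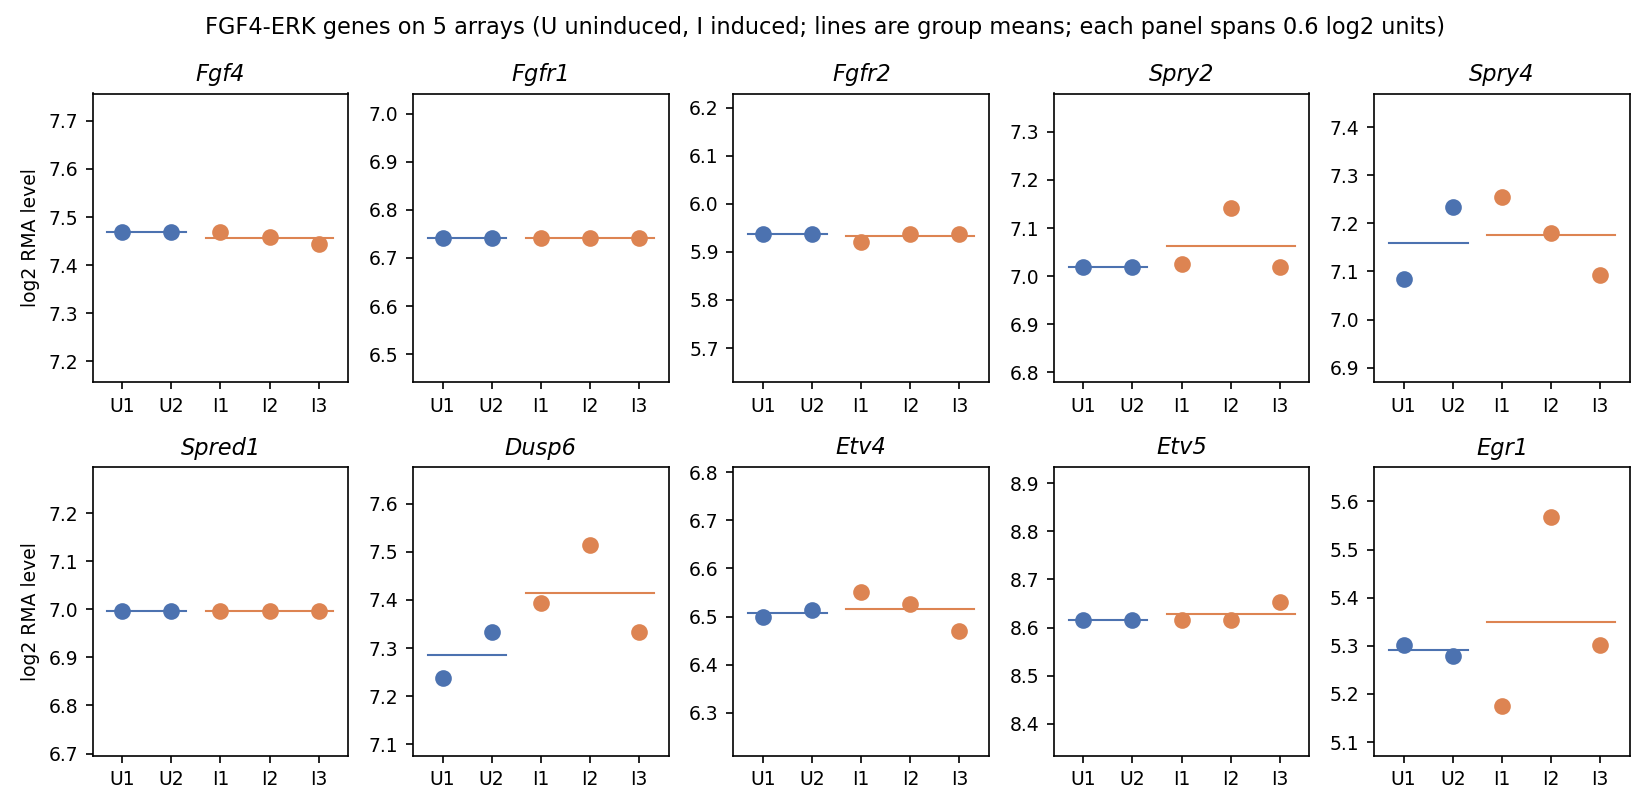
Log2 RMA level of each gene (vertical axis) on the 2 uninduced (U, blue) and 3 induced (I, orange) arrays, with lines at the group means; every panel has the same span. Fgfr1 and Spred1 are flat, and Dusp6, Egr1 and Spry2 have their highest point on induced array 2.

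The promoters of Dusp6 and Spred1 are shown because both hold CGGAA, one form of the core of ETS factor sites. ERK-regulated factors such as ETV4 and ETV5 act through ETS sites. Dusp6 had the largest difference of the 10 genes and Spred1 none. Each sequence is the 250 bases before the gene's start, from RefSeq on GRCm38.p6, read 5′ to 3′ on the gene's strand. Capitals mark CGGAA or its reverse complement TTCCG. Other forms of the ETS core were not searched, so unmarked stretches and windows without a match may still hold one. The Dusp6 window is chr10:99262981-99263230 on the plus strand, and the Spred1 window is chr2:117120821-117121070 on the plus strand.
Dusp6: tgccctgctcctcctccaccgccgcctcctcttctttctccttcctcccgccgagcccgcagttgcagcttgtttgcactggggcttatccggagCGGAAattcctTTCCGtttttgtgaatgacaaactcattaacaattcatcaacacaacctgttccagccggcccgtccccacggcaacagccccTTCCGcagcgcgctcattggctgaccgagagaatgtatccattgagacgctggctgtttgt
Spred1: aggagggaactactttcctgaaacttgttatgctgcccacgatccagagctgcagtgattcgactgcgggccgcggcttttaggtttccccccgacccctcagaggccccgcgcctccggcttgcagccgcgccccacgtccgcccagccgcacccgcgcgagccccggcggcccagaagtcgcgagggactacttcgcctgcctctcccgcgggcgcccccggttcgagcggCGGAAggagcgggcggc
The Dusp6 window held 3 matches and the Spred1 window 1 match. Of the 10 genes, 6 had such a window, and these 2 were the ones with a match, where 25.2% of 32851 windows of this length held at least 1. None of the 6 held the AP-1 motif TGANTCA on either strand (6.75% of all windows did) or a CArG box, the site of serum response factor (1.47% did). SATB1 binds AT-rich DNA. The share of A and T was 43.6% in the Dusp6 window and 29.2% in the Spred1 window, against a median of 47.6% over all windows, and 56% in the Fgfr2 window was the highest of the 6. A match is a run of letters in a window, and binding was not measured here.

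Fgf4, the ligand gene that gives the pathway its name in ES cells, kept almost the same level. It was at 7.47 on both uninduced arrays and at 7.47, 7.46 and 7.44 on the induced arrays. The first induced array equalled the uninduced ones exactly and the other two lay just below them, so the groups touched. The change was -0.012 ± 0.008 (standard error) on the log2 scale, or 1.01-fold lower (limma adjusted p = 0.770), with a 95% interval from -0.15 to 0.12. With quantile normalization applied again the sign turned (0.0089).

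The receptor genes were as flat. Fgfr1, the gene of the main FGF receptor of ES cells, had the value 6.74 on all 5 arrays, so no difference was resolved. Its interval ran from -0.13 to 0.13, with a spread that came from other genes and was narrowed by its own ties. Fgfr2, which encodes the receptor known from primitive endoderm and trophectoderm, was at 5.94 on 4 arrays and at 5.92 on induced array 1. Its change was -0.0059 ± 0.0073 (standard error, limma adjusted p = 0.770), with an interval from -0.14 to 0.13, and it was 0.0079 with quantile normalization applied again.

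Dusp6, which encodes a phosphatase that removes the activating phosphates from ERK, had the largest difference of the 10. It was at 7.24 and 7.33 without DOX and at 7.39, 7.51 and 7.33 with DOX. Induced arrays 1 and 2 lay above both uninduced arrays, and induced array 3 had exactly the value of uninduced array 2, so the groups met but did not separate. The change was 0.13 ± 0.07 (standard error), or 1.09-fold higher (limma adjusted p = 0.770), with an interval from -0.06 to 0.32. Of all genes, 8.77% had a change at least as large in either direction. Without induced array 2 the change was 0.078. With the feeder mean as a covariate it turned to -0.10 (adjusted p = 0.853, within a range from 0.656 to 1 over 15 alternatives), and Spry2, Spry4, Etv4 and Egr1 turned below 0 as well. The feeder mean was higher on every induced array (5.33 to 5.34) than on both uninduced arrays (5.31 and 5.32), so it and induction cannot be told apart. Of its 23 measured genes, 13 had a higher and 8 a lower mean with DOX, and limma called 0 of them.

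The Sprouty genes and Spred1 encode membrane-associated inhibitors that act between the receptor and ERK. Spry2 was at 7.02 on both uninduced arrays and at 7.03, 7.14 and 7.02 on the induced arrays. Induced array 2 stood above the rest, and the third induced array equalled the uninduced ones. The change was 0.04 ± 0.05 (standard error, limma adjusted p = 0.770), with an interval from -0.12 to 0.21, and without induced array 2 it was 0.0038. Spry4 was at 7.08 and 7.23 without DOX and at 7.26, 7.18 and 7.09 with DOX. The 2 uninduced arrays were almost as far apart as the lowest and highest of all 5, and the groups overlapped throughout. Its change was 0.02 ± 0.08 (standard error, limma adjusted p = 1), and the sign turned without uninduced array 1 (-0.059) and without induced array 1 (-0.023). Spred1 had the value 6.996 on all 5 arrays, so its level showed no difference at the resolution of these values.

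Etv4 and Etv5 encode ETS transcription factors of the PEA3 group, which rise with FGF signalling in many tissues. Etv4 was at 6.50 and 6.51 without DOX and at 6.55, 6.53 and 6.47 with DOX. The induced arrays thus lay on both sides of the uninduced ones. The change was 0.0085 ± 0.0289 (standard error, limma adjusted p = 1), with an interval from -0.14 to 0.15. It was -0.0091 without induced array 1.

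Etv5 had 2 probe sets in the annotation, at different levels. The probe set with the higher mean, 10363901, was at 8.62 on 4 arrays and at 8.65 on induced array 3, a change of 0.012 ± 0.015 (standard error, limma adjusted p = 0.770). The other, 10438626, was at 7.38 and 7.44 without DOX and at 7.44, 7.54 and 7.44 with DOX, where induced array 2 was the highest and the remaining induced arrays equalled uninduced array 2. Its change was 0.06 ± 0.04 (standard error, limma adjusted p = 0.769 over all probe sets with 1 symbol), with an interval from -0.10 to 0.22. The numbers that name the probe sets mostly follow genome order. For 10438626 the genes of 19 of the 20 nearest numbers lie on chromosome 16, where Etv5 lies in GRCm38.p6. For 10363901, 0 of 20 lie there and 20 of 20 lie on chromosome 10, between Ipmk and Hbs1l in this order. The probe sets of the other 9 genes had from 17 to 20 of 20 neighbours on the chromosome of their own gene. A probe set with none was found in 2.85% of 21698 probe sets checked. What 10363901 matches in the genome was not tested, so the value of 10438626 is given beside it.

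Egr1, the gene of a zinc finger factor that is transcribed within minutes of ERK activation, varied most among the induced arrays. It was at 5.30 and 5.28 without DOX and at 5.17, 5.57 and 5.30 with DOX. The induced arrays held both the lowest and the highest value, 0.39 apart, while the uninduced arrays differed by 0.02. The change was 0.06 ± 0.14 (standard error, limma adjusted p = 0.956), or 1.04-fold, with an interval from -0.24 to 0.35. Without induced array 2 the sign turned (-0.052).

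**Figure D2:**
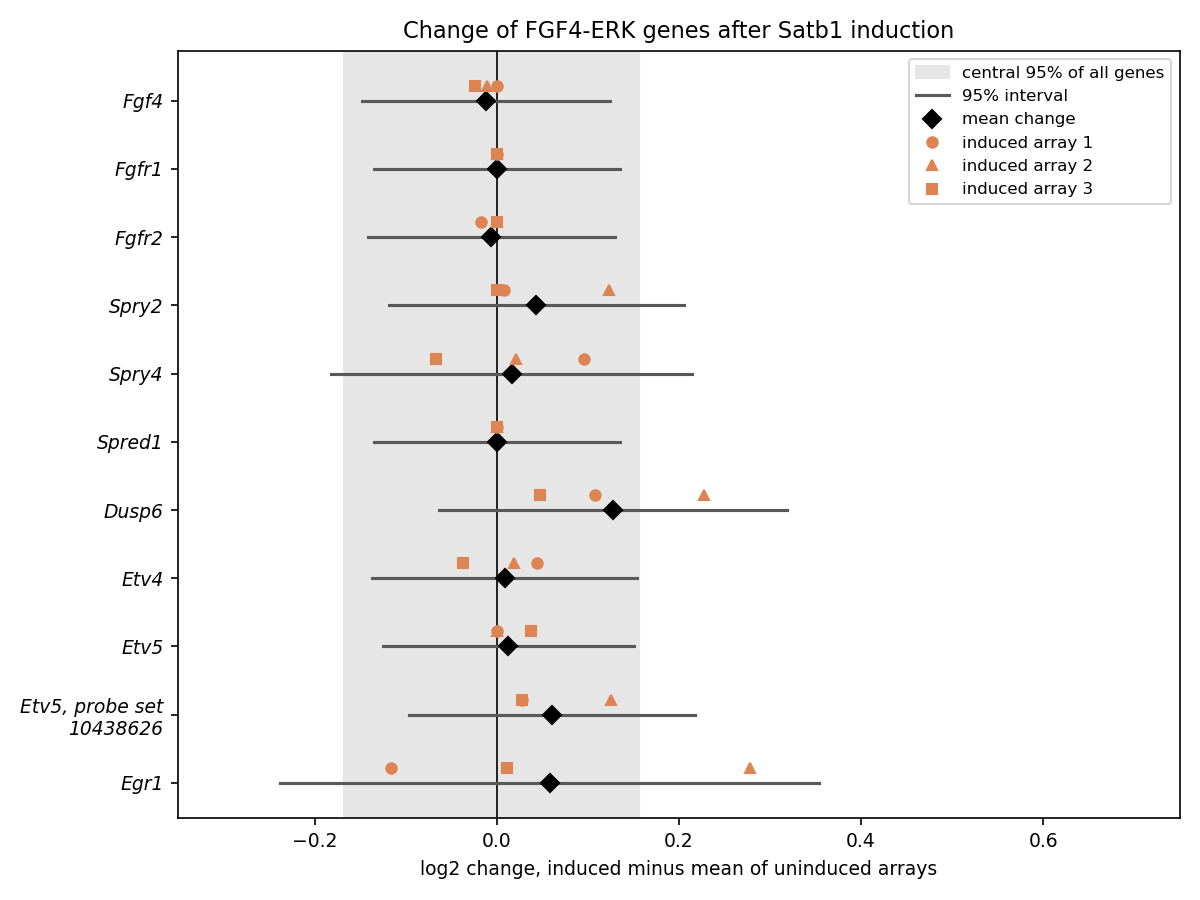
Log2 change of each gene (horizontal axis): diamonds are the mean change, grey lines its 95% interval with the untied spread, and orange symbols each induced array minus the uninduced mean. Every interval crosses 0, and the grey band, from -0.17 to 0.16, holds the central 95% of all genes.

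Some of the 10 genes shared the array on which they were highest. Induced array 2 held the highest value of Spry2, Dusp6 and Egr1, which is 3 of the 10 genes, where this array held the highest value alone in 14.5% of all genes. It also held the highest value of the second Etv5 probe set. Spry4 and Etv4 were instead highest on induced array 1. The mean over the 10 genes was 6.89 and 6.91 without DOX and 6.91, 6.97 and 6.90 with DOX, so induced arrays 1 and 3 lay close to the uninduced ones. The feeder mean was also highest on induced array 2, at 5.34, and its part in these values was not tested.

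Of 99 further genes of the pathway, 90 were measured, and none passed limma's test over all genes (0 higher and 0 lower). An unadjusted p under 0.05 was reached by 0 with a higher and 3 with a lower mean, against 0.481% and 1.07% of all genes. With the untied spread, none passed and 3 had an unadjusted p under 0.05, against 1.07% of all genes. The 3 were Ext1, Map2k1 and Ccnd1 in limma, and Map2k1, Ier3 and Ccnd1 with the untied spread. The mean was higher in 28, lower in 51 and equal in 11, with a median change of -0.0079. The groups were fully apart in 5 of the 90 genes, with lower induced values in Ext1, Map2k1, Ier3 and Ccnd1 and higher ones in Grb2, a share near that of all genes (4.73%, with 3.08% lower and 1.65% higher).

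Among 21 other FGF ligand genes, 10 had a higher and 8 a lower mean. Fgf10, a ligand of mesenchyme, was at 3.94 and 3.86 on the uninduced and 4.09, 4.26 and 3.94 on the induced arrays (log2 change 0.20, limma adjusted p = 0.770), and its groups shared the value 3.94. The mean level of Fgf10 lay below that of the median gene. Fgf15 and Fgf17 were higher on uninduced array 2 alone, at 5.499 against 5.24 and at 6.59 against 6.47 on the other arrays. Fgf5, the ligand gene that marks the primed epiblast, was at 4.57 on both uninduced arrays and at 4.51, 4.53 and 4.58 on the induced arrays. Of 5 further receptor and co-receptor genes, 1 had a higher and 4 a lower mean. Fgfr4 had the largest of these changes, at -0.10 (limma adjusted p = 0.770), and its groups shared the value 4.88.

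Heparan sulfate chains hold FGF ligands on their receptors. Of 11 measured genes for their synthesis and trimming, 6 had a lower and 3 a higher mean. Ext1, a gene of the chain-building enzyme, was at 7.37 and 7.38 without DOX and at 7.31 on each induced array. The groups were apart, but the change was -0.07 ± 0.005 (standard error, limma adjusted p = 0.390), with an interval from -0.20 to 0.07. Its small standard error came from near-identical values, and it passed in the fits that left out an uninduced array, where 9.93% of all genes passed.

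Among the genes of the kinases between receptor and nucleus, the groups were apart in Map2k1, the gene of the ERK-activating kinase MEK1. It was at 8.20 and 8.27 without DOX and at 8.09, 8.03 and 8.03 with DOX, so each induced value was lower. The change was -0.18 ± 0.03 (standard error), which did not pass (limma adjusted p = 0.770, unadjusted p = 0.0076), with an interval from -0.33 to -0.03. Map2k2, the gene of the related kinase MEK2, had 0.017, with overlapping groups. Of the 8 measured genes in this list, 4 had a lower and 2 a higher mean. Among 10 measured adaptor genes, Grb2, whose product links receptors to RAS activation, was at 7.35 and 7.36 on the uninduced and at 7.38, 7.47 and 7.40 on the induced arrays (log2 change 0.06, limma adjusted p = 0.770).

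Of 16 other feedback inhibitor genes, 5 had a higher and 11 a lower mean, with a median of -0.03. Il17rd, which encodes the FGF antagonist Sef, was at 5.78 and 5.92 without DOX and at 5.78, 5.71 and 5.76 with DOX. Dusp1 and Dusp2, phosphatase genes, had changes of -0.11 and -0.07, and Dusp9 had 0.04, with overlapping groups in each and no call (limma adjusted p = 0.770 for all). Among 19 other immediate early and ETS response genes, 4 had a higher and 12 a lower mean. Ier3, an early response gene, was at 5.26 and 5.13 on the uninduced and at 5.03, 4.75 and 4.61 on the induced arrays. The change was -0.39 ± 0.15 (standard error, limma adjusted p = 0.770), with an interval from -0.72 to -0.07. Of all genes, 0.23% had a change as large, and the mean level of Ier3 lay below that of the median gene. Ccnd1, the cyclin D1 gene, was at 8.46 and 8.40 on the uninduced and at 8.28, 8.32 and 8.20 on the induced arrays. The change was -0.17 ± 0.05 (standard error, limma adjusted p = 0.770), with an interval from -0.33 to -0.006. In both genes the induced values were all the lower ones. Fos had 0.07 with overlapping groups.

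**Figure D3:**
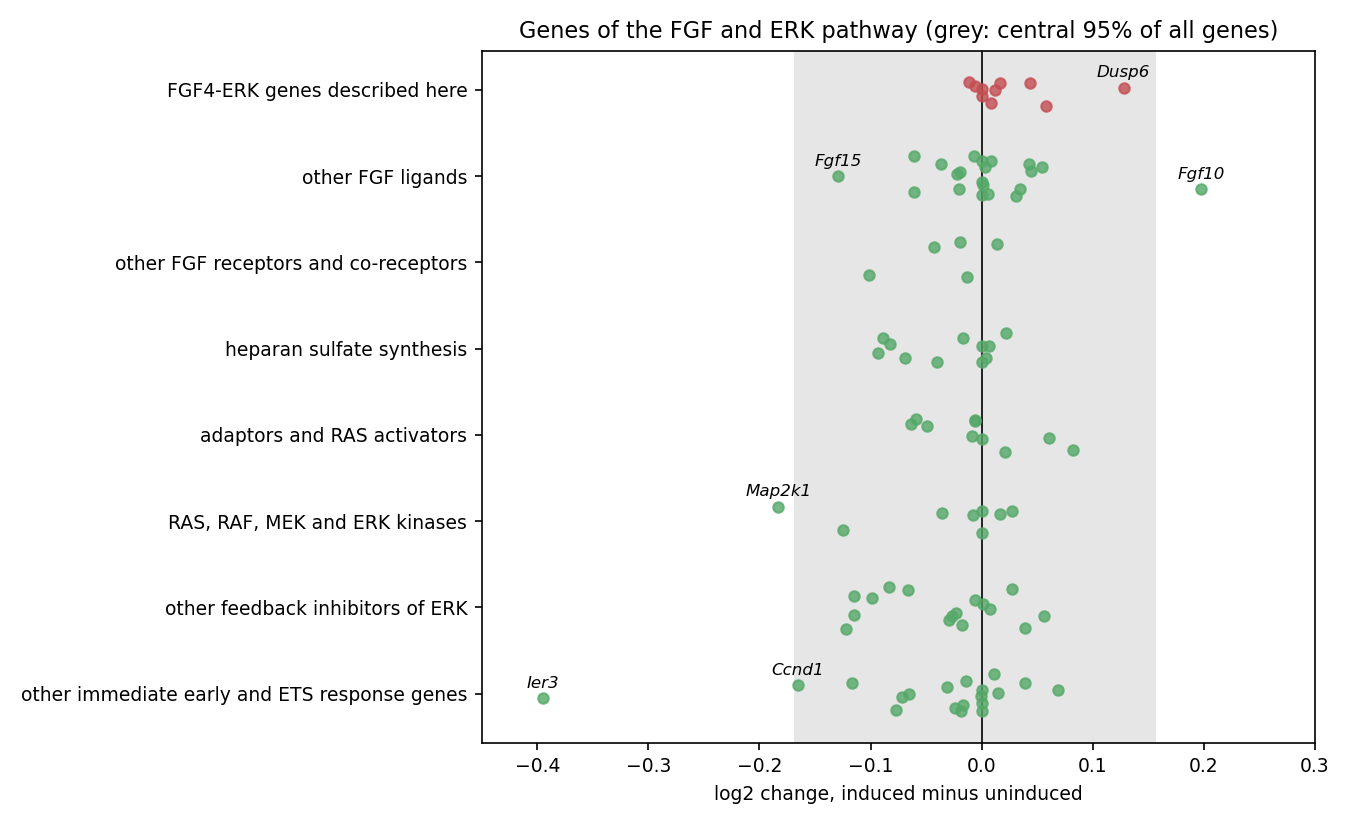
Log2 change (horizontal axis) of the 10 FGF4-ERK genes (red) and of 90 measured pathway genes in 7 lists (green), 1 point per gene; the grey band, from -0.17 to 0.16, holds the central 95% of all genes. Ier3 at -0.39, Map2k1 at -0.18 and Fgf10 at 0.20 lie outside the band, and none passed the test.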

How the data were processed

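The deposited table holds log2 values that the authors made with RMA, per the submitters' processing notes. Version, software and genome build: not given in the sources used here. Each of the 5 arrays has its own column, and none was pooled. The log2 scale was read from the values. Of 35557 probe sets, 21789 had 1 gene symbol in the array's annotation table, 1621 had several and 12147 were not named. The probe set with the highest mean stood for a gene, which gave 19938 genes, and no low values were filtered. All 10 members matched the GRCm38.p6 gene table with no change of symbol, and 6 of them had a RefSeq promoter window.

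Induced and uninduced arrays were compared by limma (version 3.58.1, R 4.3.3), using lmFit and then eBayes with no trend. Tests were two-sided, p-values were adjusted over all genes by the Benjamini-Hochberg method, and the threshold was 0.05. An exact permutation test of 2 against 3 arrays was not run. For intervals, limma's prior was taken from genes in which no 2 arrays were equal (the untied spread: prior SD 0.086 with 2.87 degrees of freedom, against 0.0050 and 0.467 from all genes). Precision is limited by how few arrays there are. Tests were tested on simulated data. The outcome is not given here, so it does not vouch for the tests on values with many ties.

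Members, pathway lists and marker lists were chosen with earlier results of these data known. Named genes were the 10 members, Satb1, 5 defining markers and some or all of the 4 genes with the smallest p per pathway list. Alternatives were another probe set rule, a level filter, median centring, quantile normalization, other priors, untied genes, a block for the title number, a covariate for the feeder mean, a threshold of 0.01 and each array left out. The other Etv5 probe set was added after seeing the data.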

Additional observations from a re-analysis of the deposited data

How the results depend on the processing

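No member passed under any alternative run, including the fits without an uninduced array, in which 9.93% of all genes passed and the lone array was assumed to vary like the induced ones. With the feeder mean as a covariate, Spry2 (-0.066), Spry4 (-0.14), Dusp6 (-0.10), Etv4 (-0.019) and Egr1 (-0.22) turned sign. With quantile normalization applied again, Fgf4 (0.0089) and Fgfr2 (0.0079) did, and 2 members had all induced arrays above the uninduced ones, as did 10.9% of all genes. With single arrays left out, Spry4 ran from -0.059 to 0.092, Etv4 from -0.0091 to 0.031 and Egr1 from -0.052 to 0.14. Groups that did not overlap then numbered 0 to 3 higher and 0 to 1 lower among the members, where 2.82% to 14.5% of all genes were higher and 4.73% to 18.2% lower in this way. The 3 higher ones came without induced array 3 (3.65% of all genes), 2 without uninduced array 2 (14.5%), and the lower one without induced array 1 (5.34%). Pathway genes passing numbered 0 to 3 higher and 0 to 7 lower, and Satb1 ran from 3.35 to 3.75, passing without uninduced array 1 (adjusted p = 0.0042) or 2 (0.0034). Satb1, at 3.55, newly passed under the untied spread and in a test limited to the 3899 genes without a tie in either group, 4 of them members. The cause of the other changes was not tested.

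The title numbers were not shown to pair the arrays: deviations of same-numbered arrays from their group means correlated at -0.0063 and 0.0063. With the number as a replicate block, induced array 3 had no partner, so the changes equalled those without that array, with Dusp6 at 0.17. In that fit 0 members passed, but neither did Satb1 (limma adjusted p = 0.693), so it cannot decide whether members changed. All 10 members lay above the median level, so the level filter left each of them in.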

Other observations

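FGF and ERK signalling is known to favour primitive endoderm and the primed epiblast over naive ES cells, so marker lists of these types were measured on the same arrays. The 15 primitive endoderm genes had mean levels of 5.19 on both uninduced arrays and of 5.20, 5.18 and 5.23 on the induced arrays, so the groups overlapped. Of these genes, 8 had a higher and 4 a lower mean in induced cells, with a median change of 0.0029. Gata6, the gene of the factor that defines this lineage, was at 4.85 and 4.82 on the uninduced and at 4.88, 4.89 and 4.99 on the induced arrays. The induced values were all the higher ones, as in 1.65% of all genes, with no call (log2 change 0.08 ± 0.04, standard error, limma adjusted p = 0.770). The mean level of Gata6 lay below that of the median gene.

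The 10 primed epiblast genes had mean levels of 6.17 and 6.22 on the uninduced arrays and of 6.21, 6.21 and 6.18 on the induced arrays, and the 10 trophectoderm genes lay between 5.64 and 5.67 on every array. No gene of these 3 lists passed (0 higher and 0 lower in each, limma). Nanog, a gene of the naive state that ERK activity is known to lower, was at 9.79 and 9.88 on the uninduced and at 9.80, 9.75 and 9.80 on the induced arrays, with overlapping groups.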
